A study of Homo sapiens with 58 samples.

Results

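MALAT1 and NEAT1 are neighbouring long non-coding RNA genes on chromosome 11, and HuR binding was followed along both, peak by peak. All peaks that the deposited coverage table assigned to either gene name were taken, after repeated rows were dropped. This gave 82 of 387214 peaks, 22 in MALAT1 (ENSG00000251562) and 60 in NEAT1 (ENSG00000245532), each 20 nt long and on the plus strand. The rule used the gene name alone and no measured value.

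The study mapped HuR on RNA by UV crosslinking, immunoprecipitation and sequencing (CLIP-seq) in Huh-7.5, a human hepatocellular carcinoma cell line, in 58 libraries that fall into 16 groups. Wild-type cells gave 12 libraries of nuclear or cytoplasmic fractions, 3 for each fraction with mock treatment and 3 with 0.5 mM sodium arsenite for 45 min, an oxidative stress that induces stress granules. These fraction libraries had no APEX reaction. The other 46 libraries came from 3 lines that express the peroxidase APEX in different places: APEX-NLS, carrying a nuclear localisation signal, APEX-NES, carrying a nuclear export signal, and APEX-G3BP1, fused to a core stress granule protein. In these lines, proteins near APEX were biotinylated with 0.5 mM biotin phenol for 30 min and 1 mM hydrogen peroxide for 1 min. An input library holds the HuR immunoprecipitate of a line, and an enriched library holds what streptavidin then captured from it. NLS and NES each had 2 input libraries and 4 enriched libraries per treatment. G3BP had 4 mock and 5 arsenite inputs, and 6 mock and 7 arsenite enriched libraries. All cells were crosslinked at 400 and then 200 mJ/cm2, and HuR was precipitated with the same antibody. The labels do not say whether the lines were single clones or whether libraries of a group came from separate cultures, so p-values measure only the spread between these libraries, which may be technical.

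HuR, the product of ELAVL1, is an RNA-binding protein that prefers U-rich and AU-rich stretches, is mostly nuclear and shuttles to the cytoplasm. MALAT1 is an abundant nuclear RNA that concentrates at nuclear speckles, the compartments rich in splicing factors. NEAT1 is the architectural RNA of paraspeckles. It is made as a short and a long isoform that share their 5′ part, and the long isoform is the one required to build the body.

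Values are tags at a peak divided by the authors' library divisor and multiplied by 1000000 (CPM), recovered as whole tags for every library. Tags in peaks numbered 235471 to 673322 in the fraction libraries, 1353 to 484305 in the inputs and 519 to 86419 in the enriched libraries, and 16 libraries had fewer than 10000. MALAT1 held 1880 to 4937 tags in a fraction library, and NEAT1 114 to 723. The enriched libraries held 0 to 987 MALAT1 tags and 0 to 32 NEAT1 tags, and 25 of the 29 had fewer than 20 NEAT1 tags, so single NEAT1 peaks are hardly measured there. All fraction libraries belong to library set JL0380 and none of the others do, so fractionation and set cannot be told apart between the experiments. In 5 pairs of enriched libraries no difference beyond sampling noise was found (chi-square per degree of freedom 0.976 to 1.09). Each pair counts once in the means and SDs of group levels, and pairs were not merged in the tests and the differences unless stated. Of 10 hepatocyte marker genes, 8 had a peak, with 26621 tags in all, while APOA1 and TTR had none. Leukocyte markers had 55 tags, endothelial markers 10 and fibroblast markers 0.

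In RefSeq's GRCh38.p14 annotation MALAT1 spans 65497738 to 65506516 and NEAT1 65422798 to 65445540, both on the plus strand. Peaks are numbered from the 5′ end. The peaks of MALAT1 began 1388 nt into the gene and stopped 1604 nt before its end, with a density of 2.51 peaks per kb. NEAT1 was covered at nearly the same density, 2.64 per kb, from 1787 nt after the start to 2037 nt before the end. The longest distance between neighbouring peaks was 1229 nt in MALAT1, after peak 1, and 1380 nt in NEAT1, after peak 51. The table annotates all 22 MALAT1 peaks as both intron and lncRNA, and 1 NEAT1 peak so. A further 2 NEAT1 peaks carry a transposable element label.

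HuR tags on MALAT1 were concentrated at a single site. Peak 4, at chr11:65501022-65501042 and 3284 nt from the RefSeq start, had a deposited peak score of 13181.7, the highest of the whole table. It was the highest of all 387214 peaks in 28 of the 58 libraries, 9 of the 12 fraction libraries among them, and ranked among the 10 highest in 41. In mock cells it held 50.3% ± 1.37 (SD, n = 3) of the MALAT1 tags of the nuclear fraction and 49.1% ± 1.69 of those of the cytoplasmic fraction. The 5 highest peaks together held 75.8% ± 0.744 and 79.2% ± 1.35. After peak 4 these were peak 3 (3097 nt from the start), peaks 19 and 17 (6584 and 6211 nt) and peak 15 (4896 nt). No other part of MALAT1 came near the 3 to 4 kb stretch, which held 66.4% of the gene's CPM in nuclear mock libraries and 63.2% in cytoplasmic mock libraries.

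NEAT1 showed no comparable single site. Its highest peak, peak 42 at chr11:65437368-65437388 and 14570 nt from the start, held 13.5% ± 2.96 of the NEAT1 tags in nuclear mock and 14.2% ± 1.00 in cytoplasmic mock libraries. The 5 highest peaks held 40.3% ± 1.27 and 36.3% ± 3.25. The stretch from 8 to 12 kb, with 20 peaks, was the best covered in the nucleus: its bins at 8 to 10 and 10 to 12 kb held 23.2% and 27.7% of the gene's nuclear mock CPM. In cytoplasmic mock libraries they held 16.5% and 22.8%.

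**Figure D1:**
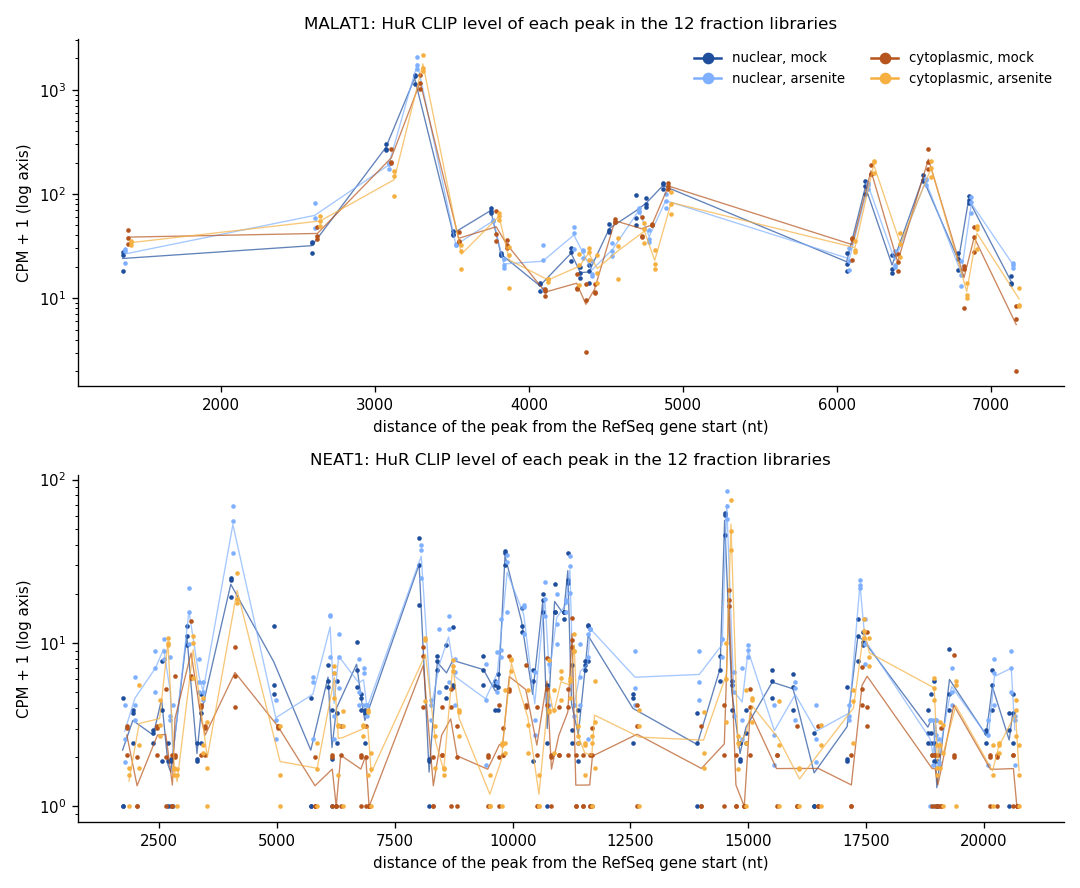
Mean CPM of each peak against its distance from the RefSeq start (nt), for MALAT1 and NEAT1 in the 4 fraction groups (n = 3 libraries each). MALAT1 peak 4 stands far above its neighbours in every group, and the NEAT1 peaks are spread along the gene and lower in the cytoplasmic than in the nuclear libraries.

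How HuR binding differed between nucleus and cytoplasm is the question the fraction libraries address. Summed over its peaks, MALAT1 was at 2739, 2347 and 2597 CPM in the nuclear mock libraries and at 2324, 2149 and 2708 CPM in the cytoplasmic ones. These ranges overlap, and the mean log2 difference was 0.10 (two-sided exact permutation p = 0.4, smallest possible 0.1). NEAT1 was at 385, 440 and 414 CPM in the nuclear mock libraries and at 138, 116 and 121 CPM in the cytoplasmic ones. Every nuclear library lay above every cytoplasmic library, with a 3.26-fold ratio of geometric means (log2 difference 1.71, exact permutation p = 0.1, the smallest 3 against 3 libraries allow). Benjamini-Hochberg adjustment over the 30 sums tested (15 comparisons for each gene) gave 0.58 for MALAT1 and 0.273 for NEAT1. CPM are relative within a library, and these bulk values cannot tell more RNA in a fraction from more HuR on the same RNA, nor fewer cells from less RNA per cell.

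After arsenite the same order was seen. MALAT1 sums were 2592, 2865 and 3253 CPM in the nucleus and 2403, 2807 and 3304 CPM in the cytoplasm, which overlap (log2 difference 0.04, exact permutation p = 0.8). NEAT1 sums were 436, 554 and 626 CPM in the nucleus and 201, 216 and 280 CPM in the cytoplasm. The ranges did not overlap, and the ratio was 2.30-fold (log2 1.20, exact permutation p = 0.1). The change of the NEAT1 nuclear to cytoplasmic difference with arsenite was -0.50 on the log2 scale and did not pass the test (exact permutation p = 0.28 over 400 arrangements), and that of MALAT1 was -0.06 (p = 0.795).

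**Figure D2:**
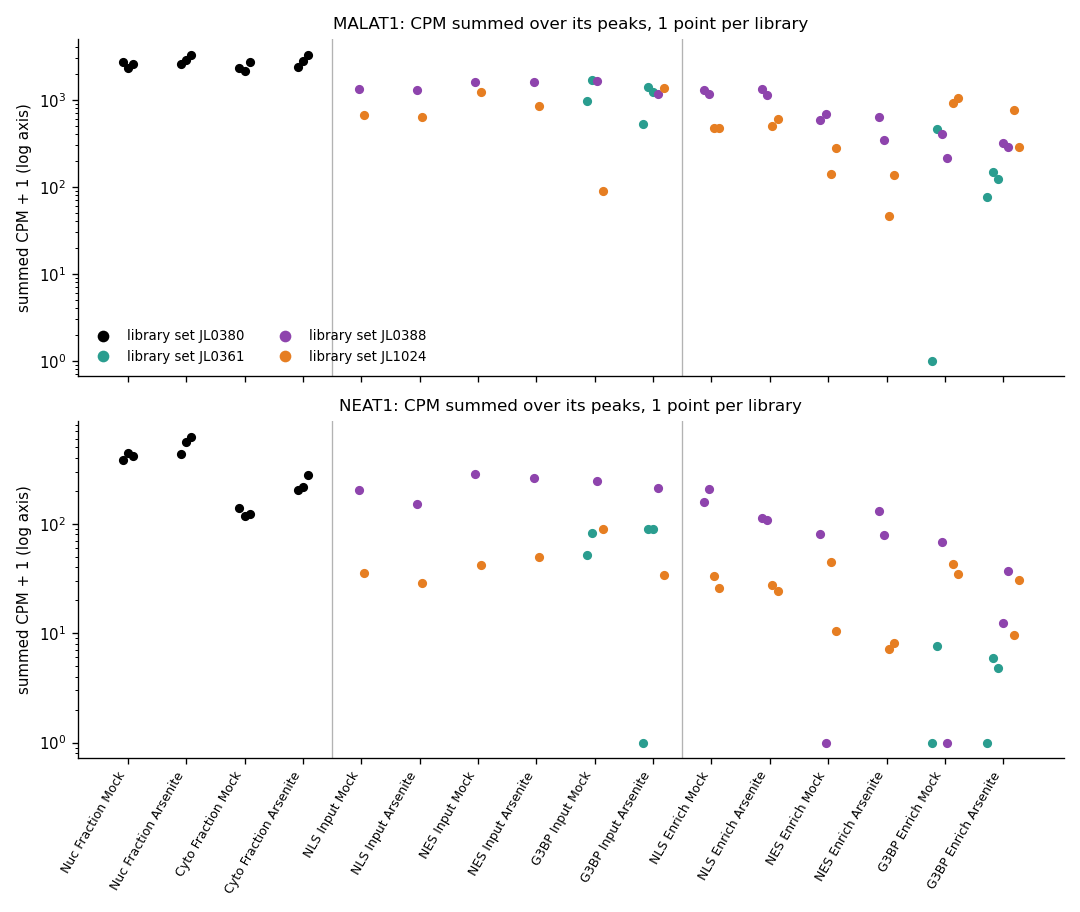
Summed CPM of MALAT1 and NEAT1 in each of the 58 libraries by group, each library a point. In the fraction libraries MALAT1 overlaps between nucleus and cytoplasm in both treatments, whereas the nuclear NEAT1 values all lie above the cytoplasmic ones.

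Single peaks were compared with limma on log2(CPM + 2.28) over all peaks detected in at least 3 libraries of a comparison, and all q values below are Benjamini-Hochberg adjusted over those peaks. In mock cells 78 of the 82 peaks were tested, and 12 were higher in the nuclear libraries and 0 lower, against 0.53% of all 157168 tested peaks called higher, 2.29% called lower and 2.82% in either direction. EdgeR also called 12 higher and 0 lower, against 2.8%. They were 11 of 56 NEAT1 peaks (10, 16, 19, 24, 27, 30, 32, 33, 37, 38 and 42) and MALAT1 peak 21. The median log2 difference was 0.83 over the NEAT1 peaks, 52 of which were positive, and 0.17 over the 22 MALAT1 peaks, beside 0.15 over all tested peaks. Scaled to the tags in peaks, that last median was 0.04 and 20 members were called. Over all 157168 tested peaks, 1312 were then called higher and 3720 lower. Nuclear and cytoplasmic libraries did not overlap, with the nucleus higher, at 33 of the 56 NEAT1 peaks and 6 of the 22 MALAT1 peaks, against 11.3% of all tested peaks. They did not overlap with the nucleus lower at 1 NEAT1 peak and 6 MALAT1 peaks, against 11.6%. The number of calls rests on all 6 libraries: without nuclear mock replicate 1 there were 10, and without any other single library 0, at the reduced group size of 2 against 3.

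The called NEAT1 peaks lay between 4 and 15 kb of the gene. Peak 27, at chr11:65432705-65432725, was at 29.1, 34.5 and 35.7 CPM in the nuclear mock and at 4.25, 4.07 and 7.38 CPM in the cytoplasmic mock libraries. The groups did not overlap, with a log2 difference of 2.26 (SE 0.28, q = 0.00299). Peak 32, at chr11:65433758-65433778, was at 14.6, 21.8 and 14.5 CPM against 1.06, 3.06 and 1.05 CPM (log2 difference 2.28, q = 0.00562). Peak 38 stood at 11.7, 11.8 and 6.76 CPM against 1.06, 2.04 and 0 CPM (1.92, q = 0.019). The cytoplasmic values of these last peaks are a few tags each. Peak 42, the highest of the gene, was at 59.7, 44.5 and 61.8 CPM in nuclear mock and at 20.2, 17.3 and 15.8 CPM in cytoplasmic mock libraries, again without overlap (1.51, SE 0.24, q = 0.00885). Peak 10, the next highest by its mean over the 4 fraction groups but not in the nuclear mock libraries, at chr11:65426882-65426902, was at 23.3, 18.2 and 24.1 CPM against 5.32, 3.06 and 8.44 CPM (1.66, q = 0.0253). Peak 19, at chr11:65430881-65430901, was at 16, 42.7 and 29 CPM against 8.51, 3.06 and 7.38 CPM (1.84, q = 0.0404). Its nuclear libraries differed more from each other than those of peak 27 did, but all lay above the cytoplasmic ones.

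**Figure D3:**
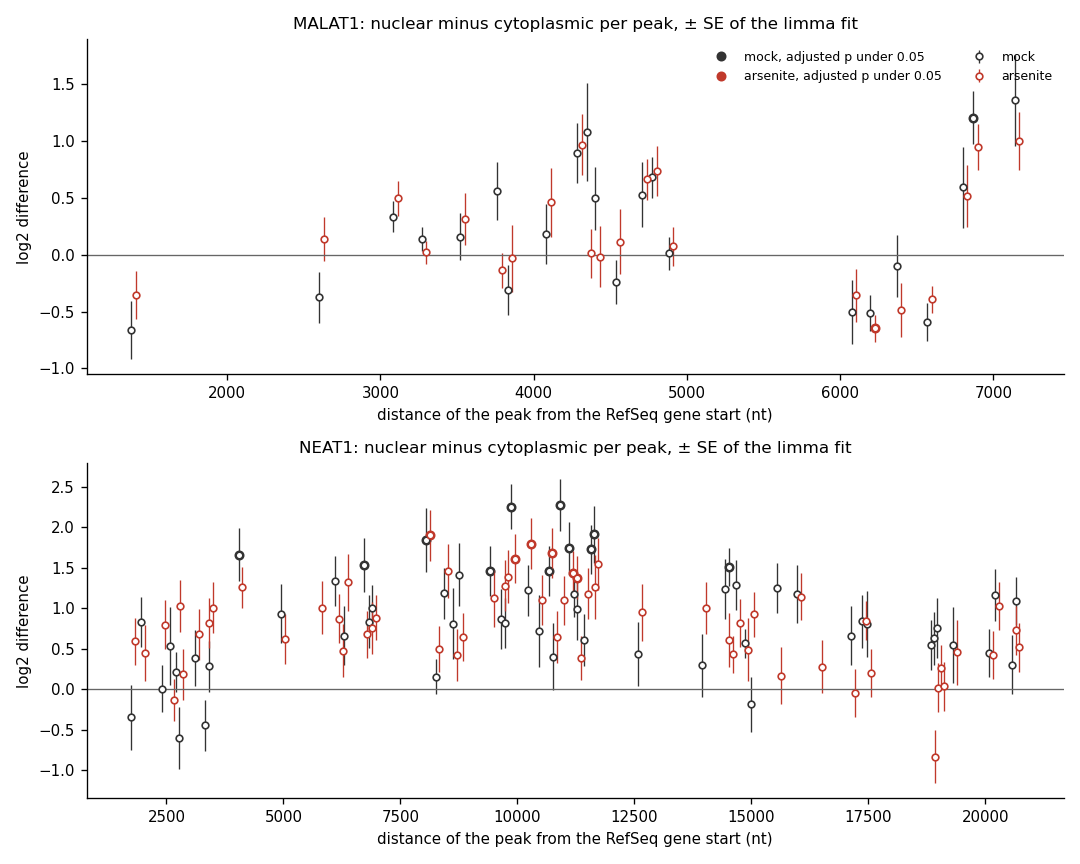
Nuclear minus cytoplasmic log2 difference of each tested peak against its distance from the RefSeq start (nt), in mock and arsenite, with filled symbols for peaks that passed limma's adjusted p of 0.05. The NEAT1 peaks lie mostly above 0 and the MALAT1 peaks on both sides of it.

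By position, the nuclear to cytoplasmic ratio of mean CPM along NEAT1 in mock cells was 1.24 at 2 to 4 kb, where the libraries overlapped, and 3.71 at 4 to 6 kb. It was 6.23 at 6 to 8 kb, 4.68 at 8 to 10 kb and 4.07 at 10 to 12 kb, and in these 3 bins the libraries did not overlap. Further 3′ it was 3.18 at 14 to 16 kb, 2.28 at 16 to 18 kb and 4.98 at 20 to 22 kb, without overlap. It was 1.77 at 12 to 14 kb (2 peaks) and 2.16 at 18 to 20 kb (5 peaks), where the libraries overlapped. Among the bins of at least 3 peaks, the mock ratio was lowest at 2 to 4 kb, near the 5′ end of the covered stretch. Bins differ in depth: the cytoplasmic mock libraries together held 53 tags at 2 to 4 kb, 10 at 6 to 8 kb and 6 at 20 to 22 kb.

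The 12 NEAT1 peaks within 4 kb of the first peak were taken as the 5′ part of the gene. The files hold no isoform boundary, so these peaks cannot be assigned to the short or the long isoform. They held 14.8, 11.6 and 13.1% of the NEAT1 tags in the nuclear mock libraries and 18.5, 20.2 and 29.6% in the cytoplasmic ones. The groups did not overlap and differed by -9.60 percentage points (exact permutation p = 0.1, the smallest possible, and 0.2 after adjustment over 4 comparisons). Without cytoplasmic mock replicate 3 the difference was -6.19 points. With arsenite the shares were 18.5, 20.2 and 20.6% in the nucleus and 22.7, 20.5 and 19.4% in the cytoplasm, which overlap (difference -1.06 points, exact permutation p = 0.5). Within the nucleus, the arsenite libraries lay above the mock libraries by 6.66 points without overlap (exact permutation p = 0.1). Much of this lay at 1 of the 12 peaks, peak 10. It held 16, 20 and 25 of 264, 484 and 429 NEAT1 tags in nuclear mock libraries. With arsenite it held 43, 68 and 78 of 545, 692 and 723.

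With arsenite, all 82 peaks were tested between the fractions, and 6 were higher and 1 lower in the nucleus, against 0.257% of all 236332 peaks called in either direction and 0.11% called higher. The 6 higher peaks were NEAT1 peaks 19, 27, 28, 30, 33 and 34, and the lower one was MALAT1 peak 17. Of the 7 peaks, 4 had also been called in mock cells. The NEAT1 median was 0.81 with 57 of 60 positive, the MALAT1 median 0.10, and that of all peaks -0.01. Leaving out any single library of the 6 gave 0, and edgeR's quasi-likelihood test on the whole tags called 15, all higher in the nucleus, against 0.655%.

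NEAT1 peak 19 was at 24, 36 and 39 CPM in the nuclear arsenite and at 9.39, 3.41 and 9.74 CPM in the cytoplasmic arsenite libraries (log2 difference 1.90, q = 0.0157). Peak 28 was at 10.4, 16 and 15.6 CPM against 2.17, 1.14 and 4.17 CPM (1.80, q = 0.0226). Peak 30 was at 13.6, 17.6 and 22.5 CPM against 2.89, 6.82 and 2.78 CPM (1.68, q = 0.034). None of the 3 overlapped between the fractions. Peak 27 stood at 14.4, 33.6 and 30.3 CPM against 5.78, 6.82 and 6.96 CPM (1.62, q = 0.0372), and peak 34 at 19.2, 28.8 and 32.9 CPM against 7.94, 7.96 and 10.4 CPM (1.38, q = 0.0421). Peak 42 differed from these: it was at 56, 68 and 84 CPM in the nucleus and 36.1, 47.2 and 73.7 CPM in the cytoplasm, which overlap (0.43, q = 0.535). The change of its nuclear to cytoplasmic difference with arsenite was -1.08 on the log2 scale and did not pass the test (limma interaction q = 0.122).

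The MALAT1 peaks did not all share one direction between the fractions. Peak 21, at chr11:65504619-65504639 and 6881 nt from the start, was at 87.4, 80 and 93.7 CPM in the nuclear mock and at 26.6, 37.7 and 47.5 CPM in the cytoplasmic mock libraries (log2 difference 1.21, SE 0.23, q = 0.0236). With arsenite it was at 64.9, 83.2 and 92.7 CPM against 28.9, 45.5 and 48.7 CPM, again without overlap (0.95, q = 0.0781). Peak 17, at 6211 nt and so 5′ of it, was higher in the cytoplasm with arsenite, at 157, 208 and 203 CPM against 110, 126 and 120 CPM in the nucleus (-0.65, SE 0.12, q = 0.0281). That call was not shared by edgeR (q = 0.233). Peak 19, between them, was at 152, 135 and 133 CPM in the nuclear mock and at 173, 203 and 268 CPM in the cytoplasmic mock libraries, without overlap but short of the threshold (-0.59, q = 0.0921). In the last stretch, peak 22 at 7154 nt was at 13.1, 12.7 and 15.4 CPM against 7.45, 1.02 and 5.27 CPM in mock (1.36, not called by limma).

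Whether a peak's share of its own gene differed was asked with edgeR's diffSpliceDGE, an analysis added after the data had been seen. It sets each peak's log2 difference against that of its whole gene, the peak itself included. MALAT1 peak 21 took a larger share in the nucleus in mock (log2 1.12, q = 0.00268) and with arsenite (0.92, q = 0.00763). In mock, 2 members were called, the other being NEAT1 peak 6, lower in the nucleus (-3.34, q = 0.044), against 2.24% of all peaks tested. NEAT1 peak 6 held few tags, 0, 1 and 1 in the nuclear and 1, 1 and 5 in the cytoplasmic mock libraries. With arsenite 5 members were called against 0.279%: MALAT1 peaks 9 (0.98, q = 0.0422) and 21 with a larger nuclear share, and MALAT1 peak 17 (-0.70, q = 0.0329), NEAT1 peak 42 (-0.81, q = 0.037) and NEAT1 peak 52 (-2.57, q = 0.0257) with a smaller one. NEAT1 peak 52 held 3, 3 and 0 tags in the nuclear and 6, 9 and 5 in the cytoplasmic arsenite libraries. Leaving out a library ended most of these calls. That of peak 21 was lost in mock only without nuclear replicate 3 (q = 0.0623) and with arsenite without nuclear replicate 2 or 3 or cytoplasmic replicate 1 or 3 (q up to 0.169), and each of the others without any single library.

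What arsenite did to HuR at each site was then compared within each fraction. The NEAT1 sum was higher with arsenite in every cytoplasmic library, by 0.87 on the log2 scale (exact permutation p = 0.1, the smallest possible, adjusted 0.273), and by 0.37 in the nucleus, where the ranges overlapped (p = 0.2). The MALAT1 sums overlapped in both fractions, at log2 differences of 0.24 in the cytoplasm (exact permutation p = 0.2) and 0.18 in the nucleus (p = 0.3).

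The single MALAT1 peaks did not follow their sum. Peak 4 stood at 1383, 1146 and 1339 CPM in nuclear mock and at 1565, 1717 and 2072 CPM in nuclear arsenite libraries. In the cytoplasm it stood at 1149, 1015 and 1370 CPM in mock and at 1525, 1632 and 2146 CPM with arsenite. Every arsenite library lay above every mock library of its fraction, but limma's test was not passed (log2 difference 0.46, q = 0.0732 in the nucleus and 0.58, q = 0.0684 in the cytoplasm). EdgeR did not call peak 4 in the nucleus either. With the remaining 21 peaks alone, the sum was 1272 ± 78.7 CPM in nuclear mock and 1119 ± 81.4 CPM in nuclear arsenite libraries (SD, n = 3 each). These did not overlap (-0.19 on the log2 scale, exact permutation p = 0.1). In the cytoplasm the same sum was 1216 ± 108 CPM and 1070 ± 167 CPM, which overlap (-0.19, exact permutation p = 0.4).

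Peak 3, the 5′ neighbour of peak 4 at chr11:65500835-65500855, was at 299, 269 and 266 CPM in nuclear mock and at 174, 197 and 194 CPM in nuclear arsenite libraries. In the cytoplasm it was at 201, 197 and 267 CPM and then at 95.3, 147 and 166 CPM. The groups did not overlap in either fraction. It fell in the nucleus by 0.56 on the log2 scale (limma SE 0.09, q = 0.0351), a call not made by edgeR (q = 0.478). The cytoplasmic difference of -0.72 did not pass (q = 0.0938).

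Peak 14, at chr11:65502527-65502547 and 4789 nt from the start, fell by more. It was at 78.7, 73.6 and 90.8 CPM in nuclear mock and at 33.6, 36 and 44.2 CPM in nuclear arsenite libraries. In the cytoplasm it was at 48.9, 48.9 and 50.6 CPM in mock and at 18, 27.9 and 20.2 CPM with arsenite. The treatments did not overlap in either fraction. In the nucleus the change was -1.05 (limma SE 0.17, q = 0.0356; edgeR q = 0.0123). In the cytoplasm it was -1.11, short of the threshold with limma (q = 0.0643) and called by edgeR (q = 0.0105).

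**Figure D4:**
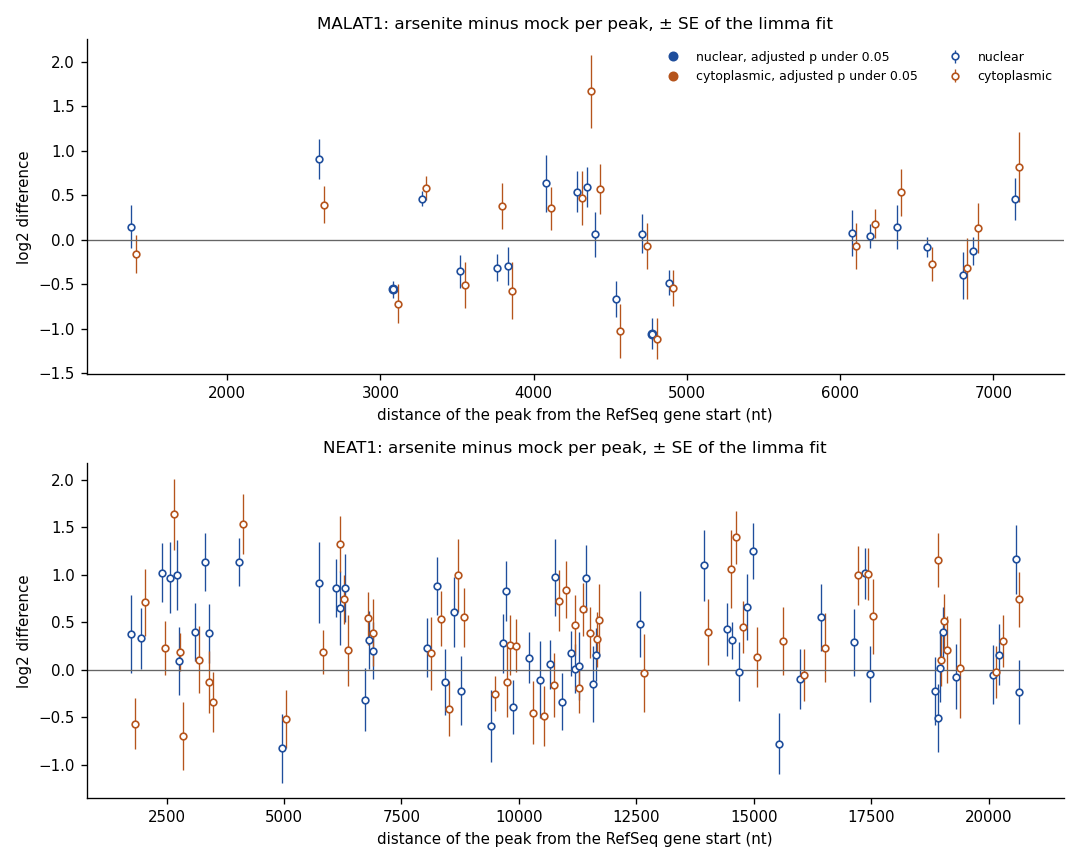
Arsenite minus mock log2 difference of each tested peak against its distance from the RefSeq start (nt), in the nuclear and the cytoplasmic fraction, with filled symbols for peaks that passed limma's adjusted p of 0.05. The passing peaks are MALAT1 peaks 3 and 14 in the nucleus, both lower with arsenite.

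In the nuclear fraction these were the 2 of 82 tested members that limma called, both lower, against 0.034% of all 200232 peaks called lower and 0.186% in either direction. Leaving out 1 library gave 0 or 1 call: 0 without nuclear mock replicate 1 or nuclear arsenite replicate 1 or 2, and 1 without any of the others. EdgeR called 1 lower, MALAT1 peak 14, and 1 higher, NEAT1 peak 10, against 0.377%. In the cytoplasmic fraction limma called 0 of 79, against 0.76% of all 193897 peaks (0.52% lower). There 20 members had an unadjusted limma p under 0.05, as did 36985 of all 193897 peaks. EdgeR called 4 higher and 1 lower, against 1.44%. Leaving out cytoplasmic arsenite replicate 1 or 2 gave 2 calls.  The interaction of fraction and arsenite was called by limma at 0 of the 82 members, against 0.352% of all peaks, and edgeR called 0 members. An unadjusted limma p under 0.05 was seen at 10 members and at 31036 of all 334689 peaks.

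The highest NEAT1 peaks, 42 and 10, were above their mock values in the cytoplasm in every arsenite library. In the cytoplasm peak 42 went from the mock values of 15.8 to 20.2 CPM to 36.1, 47.2 and 73.7 CPM (log2 1.39, limma q = 0.0588, edgeR q = 0.00231). Peak 10 was at 16.6, 17.6 and 25.7 CPM in cytoplasmic arsenite libraries, above its mock range of 3.06 to 8.44 CPM (1.53, limma q = 0.0661, edgeR q = 0.00656). In the nucleus it was at 34.4, 54.4 and 67.6 CPM, above its mock range of 18.2 to 24.1 CPM (1.13, limma q = 0.157, edgeR q = 0.0288). Over all tested NEAT1 peaks the median arsenite difference was 0.30 in the cytoplasm, with 42 of 57 positive, and 0.28 in the nucleus, with 42 of 60 positive. The medians over all peaks were 0.08 and 0.01.

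The share of peak 4 within MALAT1 sets its level against the other peaks of the same RNA in the same library. This share of the library's MALAT1 tags was 50.5, 48.8 and 51.6% in nuclear mock and 60.4, 59.9 and 63.7% in nuclear arsenite libraries. In the cytoplasm it was 49.4, 47.3 and 50.6% in mock and 63.5, 58.1 and 64.9% with arsenite. Arsenite and mock did not overlap in either fraction, at 11.04 and 13.1 percentage points (exact permutation p = 0.1 each, the smallest possible, and 0.171 after adjustment over 12 comparisons of shares). The share at peak 3 was 4.35 points lower with arsenite in the nucleus, at 10.9% ± 0.621 and 6.51% ± 0.481. In the cytoplasm it was 4.48 points lower, at 9.22% ± 0.604 and 4.74% ± 0.681. The share at peak 14 went from 3.17% ± 0.312 to 1.30% ± 0.0513 in the nucleus and from 2.08% ± 0.204 to 0.785% ± 0.193 in the cytoplasm (SD, n = 3 each, no overlap, exact permutation p = 0.1 each). Shares within a gene are tied to each other: a larger share at peak 4 leaves less for the other peaks together. Part of the lower shares at peaks 3 and 14 is therefore not separate from the higher share at peak 4.

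EdgeR's test within the gene called peak 14 in both fractions (log2 -1.28, q = 6.08e-06 in the nucleus and -1.39, q = 0.000145 in the cytoplasm), and each call held when any 1 of the 6 libraries was left out. Peak 3 was called in both as well (-0.74, q = 0.00407 and -0.95, q = 0.0022), but its q reached 0.204 without nuclear mock replicate 2 and 0.105 without cytoplasmic arsenite replicate 1. In the cytoplasm MALAT1 peak 10 took a larger share with arsenite (1.496, q = 0.00911), and peaks 12 (-1.21, q = 0.00114) and 15 (-0.77, q = 0.0478) a smaller one, and each of these 3 calls was lost without cytoplasmic mock replicate 2 or cytoplasmic arsenite replicate 1 or 3 (q up to 0.439). These are 2 members called in the nucleus, against 0.193% of all peaks tested in this way, and 5 in the cytoplasm, against 1.06%. Peak 4 itself was called in neither fraction, and no NEAT1 peak was called. Peak 4 makes up much of the MALAT1 difference it is set against, so this test cannot decide whether its share changed. Calls at other MALAT1 peaks are relative to that same difference.

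**Figure D5:**
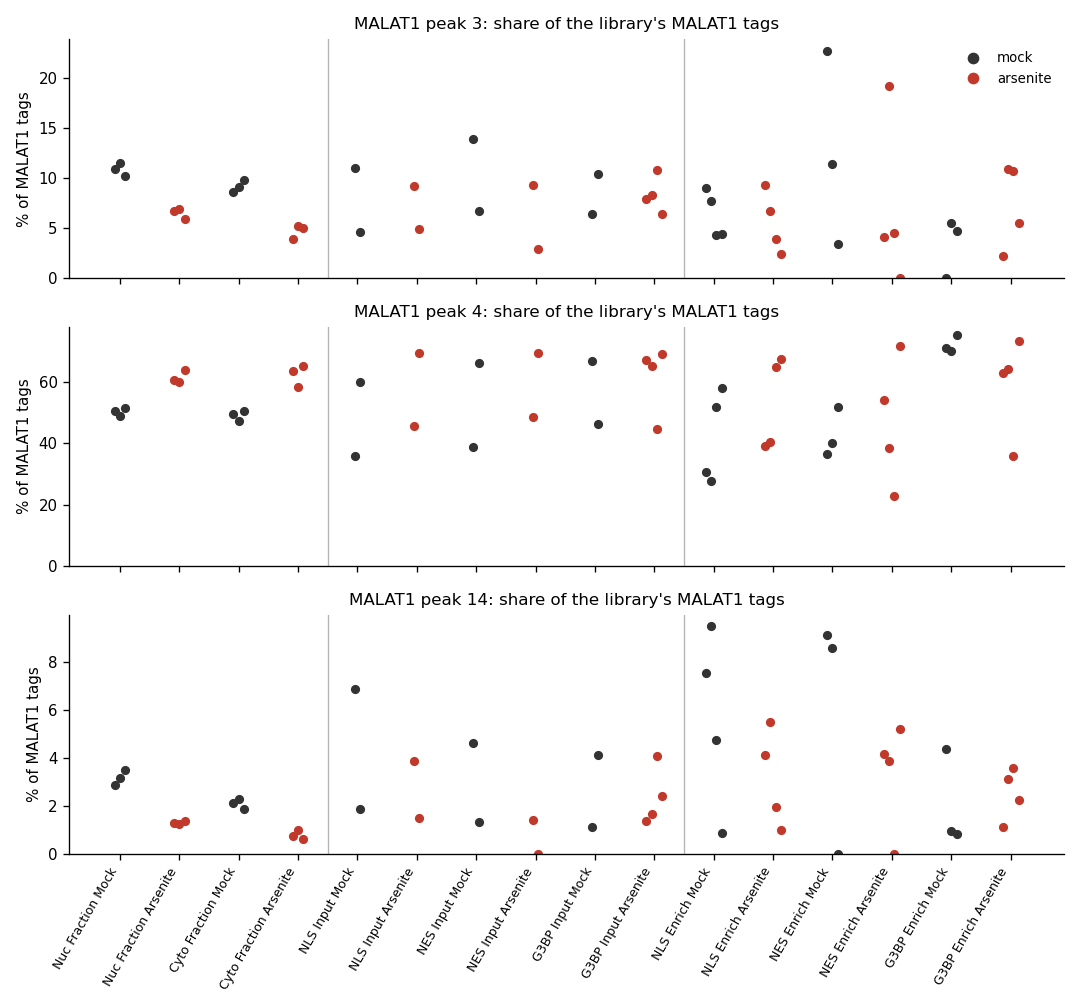
Share of each library's MALAT1 tags (%) at peaks 3, 4 and 14 by group, each point a library with 20 or more MALAT1 tags. In the fractions the arsenite points of peak 4 lie above and those of peaks 3 and 14 below the mock points, and in the input and enriched libraries the treatments overlap.

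The inputs of the APEX lines offer the same comparison in other library sets. Among inputs with at least 20 MALAT1 tags, peak 4 held 52.3% ± 13.8 of them in mock (n = 6) and 59.8% ± 11.5 with arsenite (n = 8). The ranges, 35.7 to 66.9% and 44.4 to 69.4%, overlapped, and the difference of 7.52 points did not pass the test within line and set (exact permutation p = 0.115). It was 4.21 points without NLS input mock replicate 1 and 4.84 points without NES input mock replicate 1. Within sets it was 5.85 points in JL0388, 6.27 in JL1024 and -0.78 in JL0361. The 7.52 points compare plain means over all these inputs, and the treatments were unevenly spread over lines and sets. That value therefore also holds this makeup, as do the differences at peaks 14 and 3 below. Peak 14 was 1.29 points lower (exact permutation p = 0.135, lower in 5 of 6 combinations of line and set), and 0.58 points lower without NLS input mock replicate 1. Peak 3 was 1.38 points lower (exact permutation p = 0.354, lower in 3 of 6), with values from -2.23 without NLS input mock replicate 2 to -0.72 without NES input arsenite replicate 2 and -0.36 without NES input mock replicate 1. In the enriched libraries the differences were 1.65 points at peak 4 (exact permutation p = 0.404), -0.70 at peak 3 (p = 0.769) and -1.66 at peak 14 (p = 0.0808). With the pairs without a detected difference counted once they were 1.17 (exact permutation p = 0.614), -1.23 (p = 0.823) and -1.52 (p = 0.265). Over the 53 members tested in the inputs, limma called 0 for arsenite, as it did over all 17091 peaks, and edgeR called 0 members. The unadjusted limma p was under 0.05 at 0 members and at 1614 of all 17091 peaks. No member differed in its share of its gene (0.0169% of all peaks did).

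The NLS and NES enriched libraries ask which HuR sites were near the nuclear and the cytoplasmic APEX. MALAT1 summed to 1306, 1155, 479 and 473 CPM in NLS mock and to 582, 695, 140 and 275 CPM in NES mock libraries. In each case the first pair is of set JL0388 and the last of JL1024. Within each set the NLS libraries lay above the NES libraries, by 0.95 and 1.27 on the log2 scale (1.11 in all, exact permutation p = 0.0556, the smallest possible, adjusted 0.265). Without NES mock replicate 3 it was 0.67. With arsenite MALAT1 summed to 1345, 1137, 493.04 and 595 CPM in NLS and to 627, 341, 45.6 and 136 CPM in NES libraries, again higher within both sets (log2 2.08, exact permutation p = 0.0556). With the pairs without a detected difference counted once, the exact permutation p was 0.167, then the smallest possible. Scaled to the tags in peaks the MALAT1 differences were 0.42 in mock and 1.36 with arsenite. NEAT1 sums were 158, 205, 32.2 and 25.1 CPM in NLS mock and 79.3, 0, 43.7 and 9.48 CPM in NES mock libraries, which overlap within set JL1024 (log2 2.07, exact permutation p = 0.167). That difference was 1.08 without NES mock replicate 2, which held no NEAT1 tag, and 1.35 scaled to the tags in peaks.

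Peak by peak, 0 of 23 tested members were called between NLS and NES in mock by limma, as were 0 of all 928 peaks. The unadjusted limma p was under 0.05 at 7 members and at 126 of all 928 peaks, and edgeR called 0 members. Limma called 4 without NLS enriched mock replicate 2 or 4 and 3 without replicate 3. The MALAT1 median was 1.23 with 19 of 20 peaks positive, beside 0.32 over all tested peaks. With arsenite 0 of 21 were called by limma (11 with an unadjusted p under 0.05, as had 174 of all 1676 peaks). The MALAT1 median was 1.88, with 18 of 19 positive, beside 0.05 over all. Here edgeR called MALAT1 peak 19 (3.22, q = 0.0153), against 0.298% of all 1676 peaks.

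The G3BP enriched libraries went in opposite directions by set. The MALAT1 difference from NES was -1.10 in JL0388 and 2.31 in JL1024 with mock, and -0.62 and 2.53 with arsenite, so the pooled values of 0.61 and 0.95 (exact permutation p = 0.444 each) describe neither set, and scaled to the tags in peaks they were -0.26 and -0.13. Limma called 0 of 13 tested MALAT1 peaks in mock and 0 of 13 with arsenite, where 0.491% of all 1223 peaks were called. No member had an unadjusted p under 0.05 or was called by edgeR in either. Of all peaks, 34 of 656 in mock and 258 of 1223 with arsenite had such an unadjusted limma p. No NEAT1 peak had enough tags to be tested. Arsenite within the enriched libraries gave 0 called of 29 members for NLS, 0 of 11 for NES and 0 of 10 for G3BP with limma and with edgeR. An unadjusted limma p under 0.05 was seen at 0, 2 and 0 members, and at 151 of 2796, 52 of 753 and 267 of 1505 of all peaks.

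Captured libraries were finally set against their own inputs. In the NES line MALAT1 was at 45.6 to 695 CPM (median of 4 libraries 428 in mock and 239 with arsenite) in the enriched and at 848 to 1591 CPM in the input libraries. These did not overlap, and the log2 difference was -2.28 (exact permutation p = 0.0123, adjusted 0.13), at -1.54 in JL0388 and -3.02 in JL1024. Scaled to the tags in peaks it was -1.18 (exact permutation p = 0.0123). Limma called 0 of 26 members, all 26 of them negative. Of these, 13 had an unadjusted limma p under 0.05, as had 413 of all 3059 peaks. EdgeR called MALAT1 peaks 4 (-2.49, q = 0.0152) and 17 (-2.80, q = 0.0177), against 0.458% of all peaks. Limma called 4 without NES input mock replicate 2 and 7 without NES input arsenite replicate 2. The MALAT1 median was -1.95, beside -0.46 over all tested peaks.

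In the G3BP line the difference was -2.03 for MALAT1 (exact permutation p = 0.013, adjusted 0.13) and -2.39 for NEAT1 (p = 0.0037, adjusted 0.111). The MALAT1 value was -3.98 in JL0361 and -2.21 in JL0388 but 0.94 in JL1024. The NEAT1 value was -3.06, -3.78 and -1.06. Each set had libraries of few MALAT1 tags. In JL0361 enriched mock replicate 1 held 0 and enriched arsenite replicate 1 held 1. In JL0388 enriched mock replicate 4 held 1, and in JL1024 1 of the 2 inputs held 2. Scaled to the tags in peaks, the differences were -1.54 for MALAT1 and -1.89 for NEAT1. Unscaled, they were -2.44 to -1.48 and -2.99 to -2.14 when 1 library was left out. Limma called MALAT1 peak 4 (-3.25, SE 0.82, q = 0.0329) and peak 11 (-2.58, SE 0.67, q = 0.0329) lower, 2 of 20 members against 0.415% of all peaks called lower, and edgeR called 10 lower against 2.94%. Both limma calls were lost without G3BP input mock replicate 1, 2 or 3, input arsenite replicate 1, 2 or 3, or enriched arsenite replicate 1, 2 or 3, and 1 remained in number without enriched mock replicate 1 or 2.

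In the NLS line the enriched libraries lay close to their inputs, at -0.23 for MALAT1 (exact permutation p = 0.0617) and -0.26 for NEAT1 (p = 0.0494, adjusted 0.265). Without NLS input mock replicate 1 these were -0.05 and 0.22, and without input arsenite replicate 1 -0.07 and 0.08. They were -0.44 and -0.64 with the pairs without a detected difference counted once. Scaled to the tags in peaks, the MALAT1 value was 0.18, of opposite sign and past 0.05 before adjustment (exact permutation p = 0.037), and the NEAT1 value was 0.13 (p = 0.321). NEAT1 peaks 6, 12 and 46 were called lower (-0.58, -0.33 and -0.61, q = 0.00665, 0.000187 and 0.0125), 3 of 63 members against 7.42% of all peaks. These are peaks with few tags, and edgeR called none of them and 0.0589% of all peaks. Limma called 5 without NLS input mock replicate 2, input arsenite replicate 1 or enriched mock replicate 1.

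Nuclear speckles, where MALAT1 concentrates, also hold proteins whose messages carry HuR peaks. Over 195 tested peaks in 10 nuclear speckle genes, such as SON and SRRM2, limma called 3 peaks higher and 15 lower in the nuclear mock fraction, against 0.53% and 2.29% of all tested peaks, with a median log2 difference of 0.01. With arsenite it called 4 higher and 2 lower of 236, against 0.11% and 0.147%, with a median of -0.06. In the mock fractions, other nuclear lncRNAs (5 of 7 genes, 185 peaks, KCNQ1OT1 and TUG1 in the list) had 2 higher and 1 lower and a median of 0.31. LncRNAs that are mostly cytoplasmic, NORAD in the list (5 of 6 genes, 79 peaks), had 5 higher and 1 lower in mock and a median of 0.15. All 17659 lncRNA peaks tested in mock had 162 higher, 100 lower and a median of 0.21. The NEAT1 mock median of 0.83 lay above each of these medians, and the MALAT1 mock median of 0.17 did not. Between the fractions with arsenite, the other nuclear lncRNAs had 0 higher and 0 lower of 271 and a median of 0.06. The mostly cytoplasmic ones had 2 higher and 0 lower of 111 and a median of 0.05. All 26587 lncRNA peaks tested there had 54 higher, 21 lower and a median of 0.03. With arsenite in the cytoplasm, 0 peaks of the speckle genes were higher and 4 lower of 214, against 0.24% and 0.52% of all tested peaks.

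Over the 12 fraction libraries, the genes whose summed CPM ran most like MALAT1, of 1763 compared, were SREBF2 (Pearson r = 0.889), XPO1 (0.829), PAFAH1B1 (0.81), ANKS1B (0.808) and KIF1B (0.806). Those most like NEAT1 were MAD1L1 (0.981), CUX1 (0.974), UBE3D (0.974), PCM1 (0.969) and ANKRD11 (0.968). MAD1L1 was at 54.3 ± 3.66 CPM in nuclear mock and 14.3 ± 0.468 CPM in cytoplasmic mock libraries, with 75.8 ± 10.1 and 37.0 ± 12.01 CPM after arsenite. MALAT1 and NEAT1 correlated with each other at 0.505. These correlations describe libraries that share groups and depth and were not tested.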

How the data were processed

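The authors deposited 1 table of HuR CLIP-seq peaks over all 58 libraries, each value a coverage signal: tags at a peak divided by a number of the library's own. Per the submitters' processing notes, Bowtie2, SAMtools, bedtools, HOMER and the build GRCh38.p14 were used, with roles, versions and filters not given in the sources used here. The deposited peak score was used only to rank peaks. The table held 395471 lines, and 8257 repeated lines were dropped. Whole tag counts were recovered from the deposited signal, the largest deviation from a whole number being 0.000903 of a tag. CPM is the signal times 1000000. Columns were matched to samples by name, M read as mock and S as arsenite. Gene spans came from RefSeq's GRCh38.p14 table.

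Each peak was tested with limma 3.58.1 in R 4.3.3 (log2 of signal plus a pseudocount of 2.28 CPM, which is the smallest non-zero value of the median library; a peak needed tags in at least n libraries, n being the size of the smaller group; Benjamini-Hochberg threshold 0.05).  edgeR 4.0.16 quasi-likelihood on the recovered counts was the alternative. Sums were tested by exact two-sided permutation within library set and treatment or line. Tests of peaks and sums kept every library of their comparison. G3BP minus NES used only sets JL0388 and JL1024. Tests of MALAT1 shares needed 20 MALAT1 tags in a library, which left out 3 inputs and 7 enriched libraries. The peak tests were checked on simulated tags of the nuclear and cytoplasmic mock libraries, with changes placed only at well-covered peaks. Changes of low peaks, the enriched libraries and the permutation tests were not checked in this way. The log2 differences understate changes of low peaks.

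Peaks were named by a rule: in each gene the 5 with the highest mean CPM over the 4 fraction groups, and up to 3 called peaks per gene, direction and fraction comparison with the largest log2 difference. Other peaks named in the text were chosen after their values were seen. The members, the 3 gene lists and the 4 kb stretch were chosen with earlier results of these data known. Alternatives were another pseudocount and filter, scaling to the tags in peaks, a replicate block, leaving out each library, edgeR and counting pairs without a detected difference once. A further gene list is not reported here.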

Additional observations from a re-analysis of the deposited data

Results flagged for a closer look

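Dixon's criterion, which flags about 1 in 20 by chance, was applied in 24 checks for a library far from the rest of its group. The groups checked had at least 4 libraries. The series has 16 groups, so some checks share libraries and are not independent. A library was flagged in 2 checks, both for the MALAT1 sum in the APEX-G3BP1 line after arsenite. Input replicate 1 was at 528 CPM, below the other inputs of its group at 1159 to 1396 CPM, and this value is 9 tags. Enriched replicate 6 was at 769 CPM, above the others at 76.1 to 316 CPM, and it holds 90 tags.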

How the results depend on the processing

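Scaled to the tags in peaks, 8 differences of sums turned sign. For MALAT1 they were -0.265 (G3BP minus NES, mock), -0.133 (the same, arsenite), -0.0269 (arsenite in NLS enriched), -0.202 (arsenite in G3BP enriched), 0.178 (NLS enriched minus input, now past p of 0.05) and -0.0304 (arsenite in input), and for NEAT1 -0.319 (G3BP minus NES, mock) and 0.133 (NLS enriched minus input). As differences of mean CPM, MALAT1 arsenite values were -222 in G3BP enriched and -33.5 in input libraries, and NEAT1 was at -17.7 (NLS enriched minus input, no longer past p of 0.05) and -115 (NES enriched minus input, now past it). With the pairs without a detected difference counted once, NEAT1 G3BP minus NES with arsenite was 0.0244. In the same setting NLS enriched minus input was -0.439 for MALAT1, now past 0.05, and -0.636 for NEAT1, no longer past it. The cytoplasmic arsenite difference in the 5′ share of NEAT1 was 0.659 points with the first 5 kb and 0.275 without the highest peak. The input difference at MALAT1 peak 4 was -1.60 points over every library with a tag. The cause of these shifts was not tested.

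Counts of called members moved as well. Between nucleus and cytoplasm in mock they were 5 with the smaller pseudocount, 20 with any non-zero peak and 20 scaled, and with arsenite 0, 16 with any non-zero peak and 15 by edgeR. For arsenite in the cytoplasm they were 3 (pseudocount), 3 (any non-zero), 3 (scaled) and 5 (edgeR), and in the nucleus 0 (pseudocount) and 6 (any non-zero). NLS minus NES gave 3, 1 and 3 in mock and 1 with each of pseudocount, any non-zero, scaled and edgeR after arsenite. Any non-zero peaks gave 1 for G3BP minus NES in mock and 1 for arsenite in NLS enriched. Enriched minus input gave 5 (pseudocount), 0 (any non-zero) and 0 (edgeR) for NLS, 2 (any non-zero) and 2 (edgeR) for NES, and 0 (pseudocount), 0 (any non-zero), 1 (scaled) and 10 (edgeR) for G3BP. Scaled, 788 of all peaks were higher and 1305 lower for arsenite in the cytoplasm. For NLS minus NES these were 60 and 7 in mock and 41 and 10 with arsenite, and for G3BP enriched minus input 22 and 5. Shares of all peaks for edgeR are given above. Those for the other settings, leaving out a library among them, are not given here, so these counts cannot be set against the whole table.

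A limma fit that held the replicate number as a block called 11 and 5 members between the fractions in mock and arsenite, 7 and 3 for arsenite in cytoplasm and nucleus, and 1 for the interaction. The share of all peaks called with this block is not given here. The block left the sums at the same values except arsenite in G3BP enriched, 0.232 for MALAT1 and -0.135 for NEAT1. Same-numbered libraries correlated at -0.00324 to 0.0107 in the fractions and -0.0767 to 0.267 in enriched libraries. Between the fractions with arsenite they correlated at 0.00577 to 0.0107, above differently numbered ones at -0.01004 to 0.00235. In the other fraction comparisons these ranges overlapped. The labels give only a number, and these few values cannot decide whether same-numbered libraries were paired. The block was not run for enriched against input or for arsenite in the inputs: the inputs of set JL1024 carry no replicate number, and the numbered inputs of sets JL0361 and JL0388 alone were not fitted.

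Leaving out 1 library, log2 differences of MALAT1 sums ranged from -0.404 to -0.0548 (NLS enriched minus input), -1.22 to 0.550 (arsenite, G3BP enriched), -0.140 to 0.355 (arsenite, NLS enriched), -0.241 to 0.361 (arsenite, input), -0.0750 to 0.155 (nuclear minus cytoplasmic, arsenite) and 0.666 to 1.43 (NLS minus NES, mock). NEAT1 sums ranged from -1.18 to 0.144 and -0.653 to 1.44 (G3BP minus NES, arsenite and mock), 1.08 to 2.80 (NLS minus NES, mock), -2.76 to -1.82 and -0.710 to 0.215 (NES and NLS enriched minus input), and -0.780 to 0.208, -0.216 to 1.504 and -0.926 to 0.0473 (arsenite in G3BP, NES and NLS enriched). The cytoplasmic arsenite difference in the NEAT1 5′ share ranged from -4.02 to 1.53 points and the nuclear minus cytoplasmic mock difference from -11.7 to -6.19. In the inputs the MALAT1 share difference ranged from 4.21 to 10.4 points at peak 4 and -1.73 to -0.582 at peak 14, and in enriched libraries that of the MALAT1 share from -1.85 to 1.01 points at peak 3 and -0.952 to 4.39 at peak 4. Called members ranged from 0 to 10 and 0 to 0 between fractions in mock and arsenite, 0 to 2 and 0 to 1 for arsenite in cytoplasm and nucleus, 0 to 4 for NLS minus NES in mock, and 3 to 5, 0 to 7 and 0 to 2 for NLS, NES and G3BP enriched minus input. The NEAT1 nuclear excess kept its direction in all of these, at 1.65 to 1.78 in mock and 1.09 to 1.35 with arsenite. Groups of 3 libraries cannot reach an exact p below 0.1, and enriched libraries hold too few NEAT1 tags for single peaks.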
